A study of Homo sapiens with 88 samples.

Results

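SHP-77 is an established human small cell lung cancer (SCLC) line, a variant of large cell type. Its response to 552A was read from the 14 SHP-77 arrays among the 88 Affymetrix HG-U133 Plus 2.0 arrays of a series on 9 SCLC lines. The 14 arrays were chosen by the line named in their labels and not by any measured value. They comprised 552A at day 2 (2 arrays), day 4 (2 arrays) and day 7 (4 arrays), and the vehicle DMSO at day 2, day 4 and day 7 (2 arrays each). All cells grew in RPMI medium with 10% serum. In the treatment protocol stand the vehicle and GSK2879552 at 1 µM, which blocks LSD1, a histone demethylase. No label states that 552A is that compound, so the arm keeps the name 552A here. The series asks what LSD1 inhibition does to transcripts in lines whose growth it slows and in lines that resist it, and the labels do not say to which kind SHP-77 belongs. Whether the arrays of a group are separate cultures is not in the labels, and the spread behind each p-value may therefore be technical.

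LSD1, encoded by KDM1A, removes methyl marks from lysine 4 of histone H3 and works as part of repressor complexes with CoREST proteins and with SNAG domain factors such as INSM1. SCLC cells usually keep a neuroendocrine program of granule proteins, neuropeptides and neural transcription factors. Loss of LSD1 activity is best known for the release of genes that those complexes hold down.

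Levels are given as log2 signals, and each change is the 552A mean less the DMSO mean of those signals. A gene was called where limma gave an adjusted p below 0.05 over all 15352 genes tested. The line carried its label's markers: INSM1 stood between 13.22 and 13.60 in 552A arrays and between 13.33 and 13.65 in DMSO arrays, and the granule protein CHGA between 12.76 and 13.22 in 552A arrays and between 12.79 and 13.41 in DMSO arrays. NCAM1, an adhesion molecule of neuroendocrine cells, lay between 10.61 and 11.07 in 552A arrays and between 10.83 and 11.14 in DMSO arrays. The tuft cell factor POU2F3 and the coactivator YAP1 were dim in both arms, with means below 6.11, the median lower quartile of these arrays. KDM1A had a median of 11.53 over the 552A arrays and 11.52 over the DMSO arrays, a change of 0.03 ± 0.05 (SE, limma adjusted p = 0.786). The arms overlapped, and the level of a transcript does not measure the activity of its enzyme.

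At day 7, 3 of the 6 SHP-77 arrays stood apart. The ACTB 3' minus 5' control signal, a control for the quality and labelling of RNA, was 0.89, 0.88, 0.15 and 0.24 in 552A replicates 1 to 4 and 1.67 and 0.33 in DMSO replicates 1 and 2. The GAPDH signal of the same kind was 0.32, 0.37, -0.03 and -0.01 in those 552A arrays and 1.26 and 0.14 in those DMSO arrays. The other SHP-77 arrays lay between -0.05 and 0.33 in ACTB. Both arms thus held arrays above 0.8, in equal shares. The raised DMSO array stood higher in both signals than the raised 552A arrays. The SD between arrays of a group was taken as the root of the mean variance over genes. It was 0.17 for 552A and 0.21 for DMSO at day 7, against 0.09 to 0.11 for the groups of days 2 and 4. Results of day 7 are therefore given with and without the 3 arrays of raised ACTB signal. Without them day 7 rests on 2 552A arrays and 1 DMSO array, which limma assumes to vary like the arrays of other groups. What made these arrays differ was not tested.

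Averaged over the 3 days, 594 genes were higher with 552A (3.87% of those tested) and 655 were lower (4.27%), with a median change over all genes of -0.0060. Most of these changes were small: 105 of the 1249 reached a fold of 1.5, and 19 reached a log2 change of 1. The largest increases were those of PTPN14, AGR2 and CEACAM6, and the largest decreases those of FRMD3, NKX2-2 and CACNA1A. For 149 genes all 8 552A arrays lay above all 6 DMSO arrays (0.971%), and for 178 all lay below (1.16%), 2.13% of genes in all. Without the 3 raised arrays 661 genes were called (4.31%, with 2.38% higher and 1.92% lower), of which 607 were among the 1249, and from days 2 and 4 alone 256 were called (1.67%), of which 245 were.

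PTPN14, a phosphatase and binding partner of YAP, had the largest increase of the genes called. Its level was 10.42 and 10.34 at day 2, 10.57 and 10.66 at day 4, and 11.91, 11.80, 11.77 and 11.77 at day 7 in 552A arrays, against 8.87 and 8.93, 8.88 and 8.97, and 9.26 and 9.26 in DMSO arrays of the same days. The arms did not overlap, and the day 7 level with 552A did not depend on the ACTB signal of the array. Its change was 1.48 at day 2, 1.69 at day 4 and 2.55 at day 7, and its 4 probe sets stood at 1.38 to 1.93 averaged over days. AJUBA, a LIM protein that restrains the kinases upstream of YAP, was the other member of the YAP and TEAD list called higher, at 0.86 ± 0.13 (SE, limma adjusted p = 6.54e-06). Its arrays ranged from 10.16 through a median of 10.73 to 11.16 with 552A and from 9.57 through 9.65 to 10.07 with DMSO, without overlap. Of 25 members tested, 2 were called higher (against 3.87% of all genes), 1 was called lower (WWC1 at -0.23, with 1 of its 5 probe sets at 0.03, against 4.27%), and the median was 0.02. In bulk RNA, a change in the share of cells that express a gene and a change in its RNA per cell cannot be told apart.

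AGR2, a protein disulfide isomerase of mucus-producing cells, had 1.63 averaged over days in the probe set used and 0.67 in its other set. In the set used AGR2 stood at 12.23 and 12.19 at day 2 and 12.17 and 12.57 at day 4 in 552A arrays. At day 7 it stood at 12.72, 12.48, 13.05 and 13.09 in 552A arrays. In DMSO arrays it was at 10.91 and 10.80, 10.94 and 11.04, and 10.09 and 11.31. The arms did not overlap, but the DMSO arrays of day 7 lay farther apart than those of any other group of the line, and its change of 1.77 at day 7 without the raised arrays missed the threshold (limma adjusted p = 0.117). CEACAM6, an adhesion glycoprotein of the carcinoembryonic antigen family, was at 10.61 and 10.48, 11.27 and 11.43, and 11.09, 10.95, 11.20 and 11.30 with 552A, against 9.53 and 9.47, 10.05 and 10.04, and 9.18 and 9.20 with DMSO. It was called on each day, with changes of 1.05, 1.30 and 1.95. The list of secretory epithelium genes had 5 of 21 tested members called higher (background 3.87%) and 0 lower (background 4.27%), with a median of 0.13: beside AGR2 and CEACAM6 these were CEACAM5 at 0.72, the trefoil peptide TFF3 at 0.32 and the mucin MUC13 at 0.26. CEACAM5 ranged from 11.96 through 12.09 to 12.46 with 552A and from 11.14 through 11.36 to 11.77 with DMSO, without overlap, but its second probe set stood at 0.01 averaged over days. Leaving out the raised arrays, 4 of the 21 were called higher (background 2.38%), and from days 2 and 4 alone 3 were (background 0.918%).

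Several structural genes rose on every day. The type II keratin KRT80 was at 8.80 and 8.67, 8.97 and 8.87, and 9.21, 9.14, 9.28 and 9.37 in 552A arrays of days 2, 4 and 7, against 7.49 and 7.39, 7.96 and 7.58, and 7.60 and 7.52 in DMSO arrays. SCEL, a precursor of the cornified envelope, ranged from 8.14 through a median of 8.74 to 8.98 with 552A and from 6.66 through 7.26 to 7.91 with DMSO. NES, the intermediate filament nestin of neural progenitors, ranged from 11.17 through 11.44 to 11.61 with 552A and from 9.83 through 10.08 to 10.27 with DMSO. None of these arms overlapped, and the changes averaged over days were 1.38 ± 0.10 for KRT80, 1.36 ± 0.10 for SCEL and 1.35 ± 0.13 for NES (SE). Among secreted and matrix genes, the integrin ligand NPNT rose by 1.30 ± 0.10 and the semaphorin SEMA3C by 1.27 ± 0.10 (SE), whose second, dim probe set had 0.21. GEM, a small GTP-binding protein that inhibits calcium channels, rose by 1.39, UMODL1, a membrane protein related to uromodulin, by 1.39, the kisspeptin receptor KISS1R by 1.18, and the annexin ANXA3 by 1.40. ANXA3 was dim with DMSO, at 5.47 to 6.41. For all 12 of the largest increases the 8 552A arrays lay above the 6 DMSO arrays (background 0.971%). Of these, 11 were called on each day, as were 29 of all 15352 genes, AGR2 being the exception. All 12 were called from days 2 and 4 alone (background 0.918%). The 12 were picked by their change over the same arrays, so these counts are no separate support.

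**Figure D1:**
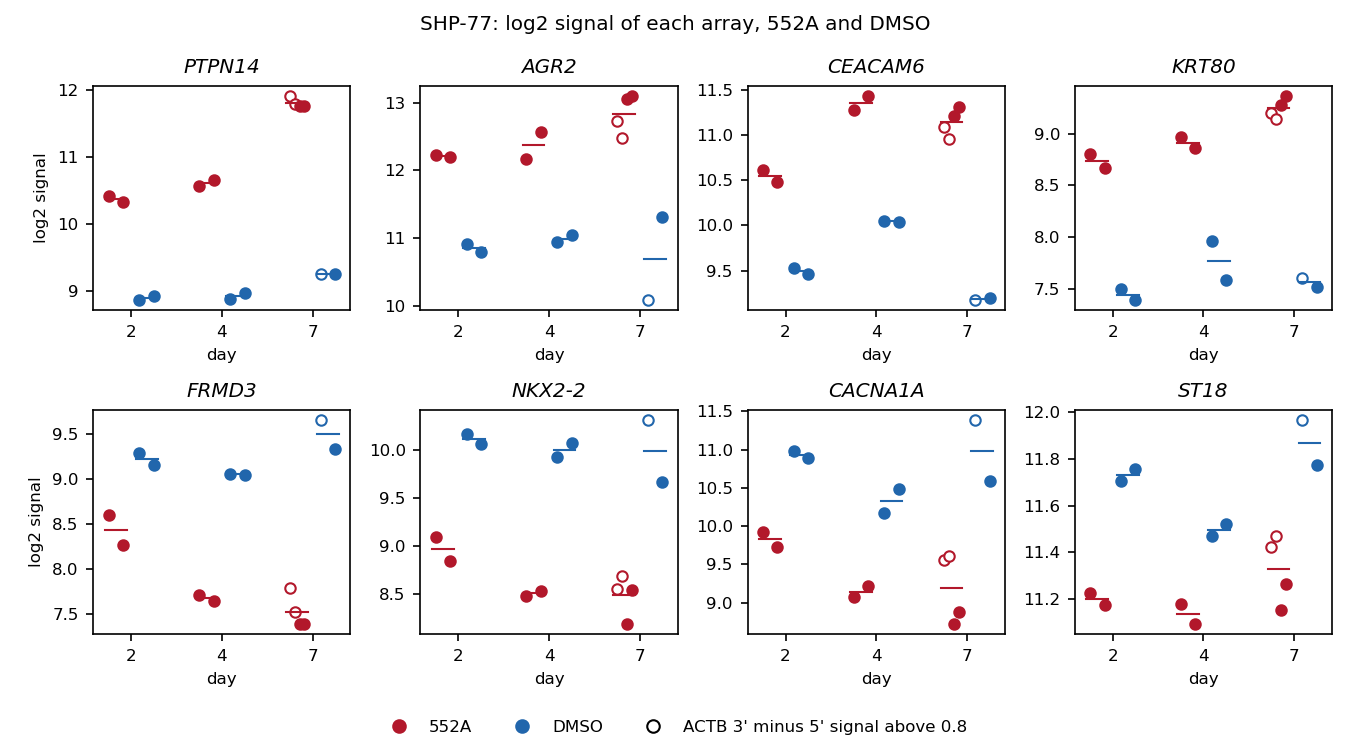
Log2 signal of each SHP-77 array (points) and group means (lines) at days 2, 4 and 7, with 552A left of DMSO on each day; open points are the arrays with an ACTB 3' minus 5' signal above 0.8. In the upper row all 552A points lie above the DMSO points, and in the lower row all lie below the DMSO points of the same day.

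FRMD3, a FERM domain protein, and NKX2-2, a homeodomain factor of neural and endocrine cells, had the largest decreases, both 2.61-fold averaged over days. FRMD3 was at 8.59 and 8.26 at day 2, 7.71 and 7.64 at day 4, and 7.79, 7.52, 7.39 and 7.39 at day 7 in 552A arrays, against 9.29 and 9.16, 9.06 and 9.05, and 9.65 and 9.34 in DMSO arrays. NKX2-2 was at 9.09 and 8.84, 8.48 and 8.53, and 8.55, 8.69, 8.19 and 8.54 with 552A, against 10.17 and 10.07, 9.93 and 10.07, and 10.31 and 9.66 with DMSO. Neither gene overlapped between arms. The change of FRMD3 was -0.80 at day 2, -1.38 at day 4 and -1.97 at day 7, and that of NKX2-2 was -1.15, -1.50 and -1.50. The 3 probe sets of FRMD3 stood at -1.38, -1.03 and -0.60 averaged over days, and NKX2-2 had 1.

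CACNA1A, the pore subunit of a neuronal calcium channel, was at 9.93 and 9.73, 9.08 and 9.21, and 9.56, 9.61, 8.72 and 8.88 in 552A arrays of days 2, 4 and 7, against 10.98 and 10.89, 10.18 and 10.49, and 11.38 and 10.58 in DMSO arrays. At day 7 the raised arrays were the higher ones in both arms, and the change was -1.79 with all arrays and -1.78 without them. Of its 5 probe sets 4 stood between -1.50 and -1.09 averaged over days, and a set whose name marks possible cross-hybridization was at 0.01. Other genes of neuronal signalling changed less: LRRTM2, an adhesion protein of synapses, fell by 0.89 (SE 0.10), the hormone precursor SST, somatostatin, by 0.85 (SE 0.12), GABBR2, a subunit of GABA-B receptors, by 0.81 (SE 0.11), and CALB2, the calcium buffer calretinin, by 0.79 (SE 0.14). LRRTM2 ranged from 8.86 through 9.42 to 9.68 with 552A and from 10.04 through 10.29 to 10.48 with DMSO, without overlap, and SST from 7.71 through 7.99 to 8.32 with 552A and from 8.24 through 8.87 to 9.43 with DMSO, with overlap. CALB2 also differed between days in both arms, with 8.29 to 8.58 at day 7 with 552A against 9.47 in both DMSO arrays, and 9.67 to 10.95 at days 2 and 4 with 552A against 10.44 to 11.18 with DMSO.

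The remaining genes among the 12 largest decreases were the adhesion gene HEPACAM2 at -0.95, DACT1, an inhibitor of Wnt signalling, at -0.88, the receptor PDGFRA and the zinc finger gene ZNF618 at -0.84 each, and PHLDB2, which anchors microtubules at the cell cortex, at -0.77. PDGFRA was dim in both arms, at 4.71 to 5.03 with 552A and 5.49 to 5.97 with DMSO, so this difference was read from dim signals only, and with no filter on dim probe sets another set stood for the gene, at 0.11 averaged over days. In 6 of the 12 the arms did not overlap (background 1.16%), and 5 of the 12 were called on each day, as were 29 of all genes. Those 5 were FRMD3, NKX2-2, CACNA1A, PDGFRA and PHLDB2. The 12 decreases too were picked by their change over the same arrays, so these counts are no separate support. Without the raised arrays day 7 rests on 1 DMSO array, and the arrays kept had entered the choice of these genes. The day 7 changes without the raised arrays are therefore no separate check. Those that missed the threshold were -0.79 for SST, -0.67 for ZNF618, -0.94 for CALB2 and -0.84 for PHLDB2, beside that of AGR2 above.

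**Figure D2:**
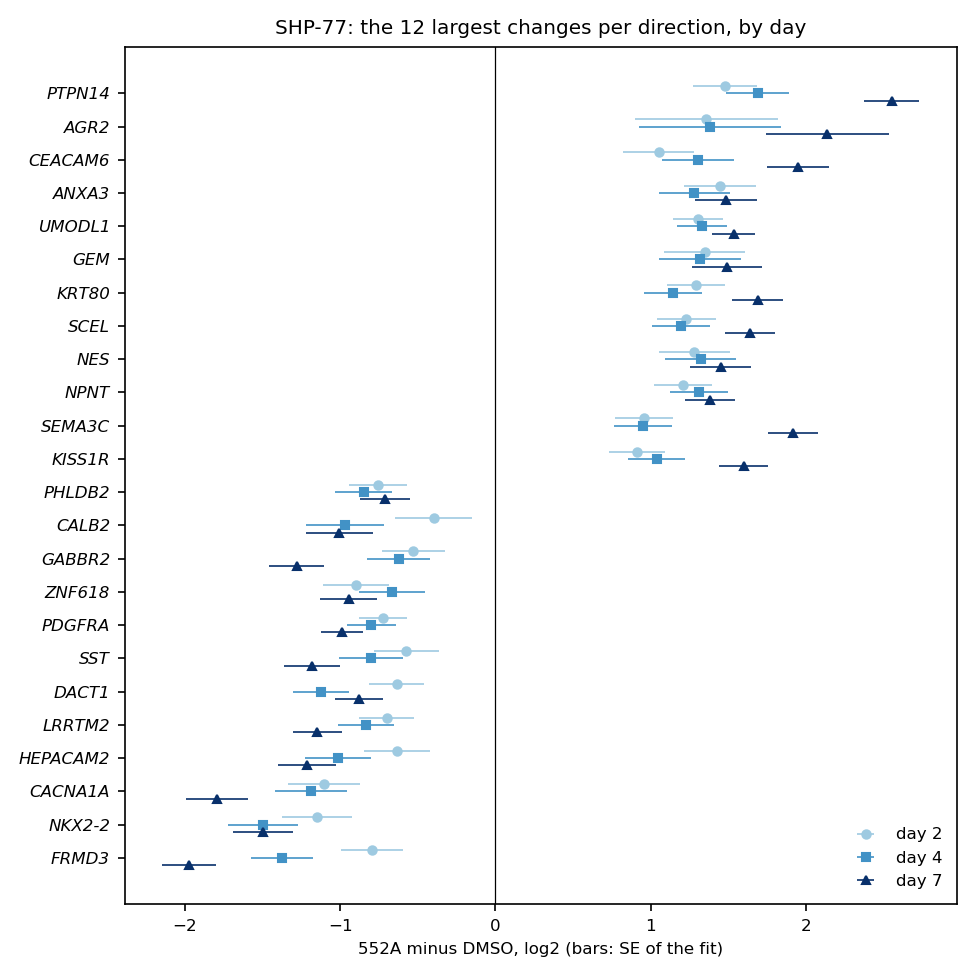
Change of 552A minus DMSO on the log2 scale (points) with the SE of the fit (bars) at days 2, 4 and 7 for the 12 genes with the largest increase and the 12 with the largest decrease averaged over days. The day 7 point of PTPN14 lies at 2.55 and that of FRMD3 at -1.97, each farther from 0 than the day 2 point.

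The promoters of the 2 genes with the largest change in each direction are shown because these genes changed most averaged over days. Each holds 300 bases, most of them before the start of transcription, from RefSeq for GRCh38.p14, all on the minus strand and all written 5′ to 3′. They lie at chr1:214551553-214551852 (PTPN14), chr7:16804950-16805249 (AGR2), chr9:83538352-83538651 (FRMD3) and chr20:21522640-21522939 (NKX2-2). FRMD3 has 4 starts and NKX2-2 has 2 in that table, and the start nearest to the edge of the gene is shown, which for FRMD3 lies 47393 bases inside it. Capitals mark matches on either strand to CAGCTG, an E-box of bHLH factors, CATTCC, the core bound by TEAD factors, TGACTCA, the site of AP-1, and AATCANNGC, the site of GFI1 factors.
PTPN14: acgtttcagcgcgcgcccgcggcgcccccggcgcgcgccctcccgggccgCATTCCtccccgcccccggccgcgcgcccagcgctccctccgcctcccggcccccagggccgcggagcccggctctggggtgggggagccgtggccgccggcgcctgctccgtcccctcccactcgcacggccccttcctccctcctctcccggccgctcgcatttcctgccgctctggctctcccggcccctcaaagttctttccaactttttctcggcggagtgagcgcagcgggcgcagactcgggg
AGR2: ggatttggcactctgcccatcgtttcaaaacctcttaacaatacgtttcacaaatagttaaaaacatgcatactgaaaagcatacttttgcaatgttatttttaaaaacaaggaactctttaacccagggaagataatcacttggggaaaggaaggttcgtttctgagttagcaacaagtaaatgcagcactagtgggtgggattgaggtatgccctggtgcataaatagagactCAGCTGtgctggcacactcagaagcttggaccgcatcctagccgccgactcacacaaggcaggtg
FRMD3: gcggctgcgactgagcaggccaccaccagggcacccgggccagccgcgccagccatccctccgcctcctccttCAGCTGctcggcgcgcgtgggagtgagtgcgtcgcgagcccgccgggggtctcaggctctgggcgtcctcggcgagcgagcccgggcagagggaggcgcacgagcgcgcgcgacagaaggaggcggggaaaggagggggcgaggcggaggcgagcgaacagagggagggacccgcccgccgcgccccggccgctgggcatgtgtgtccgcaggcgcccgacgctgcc
NKX2-2: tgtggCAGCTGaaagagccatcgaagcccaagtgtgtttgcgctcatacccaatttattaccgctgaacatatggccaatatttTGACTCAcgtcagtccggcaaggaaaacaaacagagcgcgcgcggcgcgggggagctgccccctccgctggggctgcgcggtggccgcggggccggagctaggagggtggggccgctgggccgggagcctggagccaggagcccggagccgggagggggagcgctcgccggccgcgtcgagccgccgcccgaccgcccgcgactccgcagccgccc
The stretch of PTPN14 holds 1 CATTCC, those of AGR2 and FRMD3 hold 1 CAGCTG each, and that of NKX2-2 holds 1 CAGCTG and 1 TGACTCA. None of the 4 holds AATCANNGC. Over all 35116 promoters of this length in the table, 17.9% hold CAGCTG, 14.0% hold CATTCC, 4.95% hold TGACTCA and 3.57% hold AATCANNGC. The matches are descriptions of these windows.

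Beside NKX2-2, 4 neural and neuroendocrine transcription factors were called lower averaged over days (background 4.27%), and 0 of the 29 tested were called higher (background 3.87%). They were ST18, a zinc finger factor of neural and endocrine cells, at -0.48 ± 0.07 (SE, limma adjusted p = 5.69e-07), MYT1L, a neuronal factor of the same family, at -0.31 ± 0.09, and the LIM homeodomain factors ISL1 at -0.29 ± 0.09 and LHX2 at -0.22 ± 0.06 (SE). ST18 was at 11.23 and 11.17, 11.18 and 11.09, and 11.42, 11.47, 11.15 and 11.26 with 552A, against 11.71 and 11.76, 11.47 and 11.52, and 11.96 and 11.77 with DMSO. It was lower on every day, although a 552A array of day 7 and a DMSO array of day 4 stood at the same level. The list's median was -0.08. Without the raised arrays, which leaves 1 DMSO array at day 7, ISL1 was no longer called averaged over days. The arrays kept had entered these calls, so the calls that remained are no separate check. INSM1 had -0.15 ± 0.06 and was not called (limma adjusted p = 0.110). In the list of LSD1 and its partners 1 of 21 tested members was called (median -0.02), the CoREST complex subunit HMG20B at -0.24 ± 0.06, which stood at -0.41 and -0.37 at days 2 and 4 and at 0.05 at day 7.

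The neuroendocrine markers did not move one way. Of 26 tested, 3 were called higher (background 3.87%) and 4 lower (background 4.27%), with a median of -0.04. The granin CHGB was 0.28 ± 0.06 higher, the neuropeptide precursor VGF 0.36 ± 0.10 and the enolase ENO2 0.20 higher, and GRP, gastrin-releasing peptide, had -0.62 ± 0.18, the decarboxylase DDC -0.31 ± 0.07, STX1A -0.21 and NCAM1 -0.19 (SE). GRP ranged from 12.67 through 12.89 to 13.25 with 552A and from 13.44 through 13.56 to 13.75 with DMSO, without overlap. DDC stood lower at day 7 in both arms, at 12.47 to 12.82 with 552A and 12.79 and 13.38 with DMSO, where days 2 and 4 had 13.25 to 13.47 with 552A and 13.57 to 13.62 with DMSO. With the 3 arrays of raised ACTB signal left out 2 were called higher (background 2.38%) and 2 lower (background 1.92%).

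Of 37 mesenchymal genes tested 6 were called higher (background 3.87%) and 1 lower (background 4.27%), with a median of 0.07. The calcium-binding protein S100A4 ranged from 10.75 through 11.28 to 11.40 with 552A and from 10.23 through 10.53 to 10.83 with DMSO, with some overlap, and rose by 0.61 ± 0.07 (SE, limma adjusted p = 1.7e-08). Beside it and ANXA3, the matrix protein TGFBI (0.65), the galectin LGALS1 (0.36), the protease inhibitor TIMP1 (0.33) and ANXA2 (0.24) were called higher. FN1, fibronectin, was at 9.52 and 9.72, 9.42 and 9.74, and 11.36, 11.17, 10.72 and 10.71 with 552A, against 10.59 and 10.50, 10.26 and 10.56, and 11.46 and 11.44 with DMSO, so that both arms stood higher at day 7 and 552A lay below DMSO on each day. VIM, vimentin, had 0.26 ± 0.09 (limma adjusted p = 0.0774) and ZEB1, which represses epithelial genes, had -0.16 ± 0.08 (0.230). Of 26 epithelial genes 3 were called higher and 2 lower, against the same background, with a median of 0.10: the small GTPase RAB25 at 0.38, the claudin CLDN7 at 0.27 and the repressor OVOL1 at 0.23 against the desmosome and junction proteins DSP at -0.30 and JUP at -0.27.

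Of 36 mitosis genes tested 15 were called lower (background 4.27%) and 1 higher averaged over days, with a median of -0.16. The kinesin CENPE, which moves chromosomes, ranged from 9.36 through 9.42 to 9.53 with 552A and from 9.66 through 9.73 to 9.86 with DMSO. ASPM, a protein of spindle poles, ranged from 11.21 through 11.31 to 11.58 with 552A and from 11.51 through 11.63 to 11.73 with DMSO. CENPE did not overlap between arms and ASPM did, and their changes were -0.32 ± 0.07 and -0.28 ± 0.06 (SE). The phosphatase CDC25B was the member called higher, at 0.25 ± 0.06. Without the raised arrays the median was -0.15 and 5 of 36 were called lower (background 1.92%), and from days 2 and 4 alone the median was also -0.15 and 1 was called lower (background 0.749%). MKI67, a mark of cycling cells, followed the ACTB signal at day 7, with 9.22 and 8.97 in the raised and 10.15 and 10.12 in the other 552A arrays and 9.23 in the raised and 10.09 in the other DMSO array. Its change was -0.06 ± 0.13 averaged over days, and the part of that signal in the mitosis counts was not tested beyond these values. Of 38 S phase genes 7 were called lower (background 4.27%) and 0 higher, with a median of -0.08, among them the replication factors CLSPN at -0.31 and GINS2 at -0.20, and without the raised arrays 2 were (background 1.92%). Another probe set of GINS2 stood at -0.03.

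The list of cell cycle brakes, p53 targets and apoptosis genes also holds cyclin D1, which is none of these. Of its 30 tested members 3 were called higher (background 3.87%) and 1 lower (background 4.27%), with a median of -0.05. The kinase PLK2 rose by 0.54 ± 0.12 and cyclin D1, CCND1, by 0.43 ± 0.07, the CDK inhibitor CDKN1A had 0.30 ± 0.08, while BCL2, which blocks apoptosis, changed by -0.35 ± 0.06 (SE), with another of its probe sets at -0.0074. CCND1 was at 7.91 and 7.86, 8.50 and 8.31, and 9.17, 9.29, 8.92 and 9.08 with 552A, against 7.87 and 8.01, 8.04 and 8.07, and 8.17 and 8.06 with DMSO. The arms overlapped at day 2 and were apart at days 4 and 7, and the change was 0.35 at day 4 and at day 7 1.00 with all arrays and 0.94 without the raised ones. MYC, a growth-promoting transcription factor, had -0.10, -0.28 and -0.79 on the 3 days, and MYCL had 0.48, 0.49 and 0.11. REST, a repressor of neuronal genes, had 0.17 averaged over days and was not called (limma adjusted p = 0.215). It was called at day 7 (0.48), where it had 0.32 without the raised arrays, against 1 DMSO array. A second, dim probe set of REST had 0.51, 0.54 and 0.98 on the 3 days.

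On single days 67 genes were called at day 2 (0.436%, with 0.339% higher and 0.0977% lower), 77 at day 4 (0.502%, with 0.287% higher and 0.215% lower) and 1541 at day 7 (10%). At day 7, 906 were higher (5.9%) and 635 lower (4.14%). Day 7 had 4 552A arrays where the other days had 2. Without the 3 raised arrays 198 genes were called at day 7 (1.29%), 185 of them among the 1541, and from the 3 raised arrays alone 1752 were (11.4%, with 6.31% higher and 5.1% lower). Of the 1541 genes, 1535 kept their direction without the raised arrays. The arrays kept had also entered those calls, so this agreement was largely fixed beforehand and is no separate check. Genes called on every day numbered 29, and 1461 were called at day 7 and on neither other day. A call on 1 day and not on another is no test of a difference between days. That test, the response at day 7 minus that at day 2, called 14 genes higher (0.0912%) and 3 lower (0.0195%), 0.111% in all, and 919 had an unadjusted p below 0.05.

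The 4 genes with the largest later increase were CNTN4, SQOR, TXNIP and CTH. SQOR, a mitochondrial enzyme that oxidizes sulfide, was at 7.54 and 7.39, 8.10 and 7.76, and 8.84, 8.57, 8.74 and 8.75 with 552A, against 7.31 and 6.99, 7.23 and 7.23, and 6.68 and 7.28 with DMSO. CTH, the enzyme that makes cysteine from cystathionine, was at 9.04 and 9.10, 9.26 and 9.10, and 11.02, 10.90, 10.40 and 10.43 with 552A, against 9.09 and 9.20, 9.37 and 8.97, and 9.53 and 9.51 with DMSO. SQOR was called at days 4 and 7 and CTH at day 7, and the gap between the day 7 and day 2 responses was 1.43 ± 0.21 for SQOR and 1.25 ± 0.20 for CTH (SE, limma adjusted p = 9.17e-05 and 0.000847). CNTN4, a neuronal adhesion molecule, was dim with DMSO at 4.99 to 5.75. It reached 6.88 to 7.62 at day 7 with 552A, with a gap of 1.79 ± 0.31. The other, dim probe set of CNTN4 had changes of 0.27 at day 2 and 0.41 at day 7. TXNIP, an inhibitor of thioredoxin that responds to glucose, was at 12.43, 12.39, 11.96 and 11.90 at day 7 with 552A and 10.77 and 10.87 with DMSO, while at days 2 and 4 both arms lay between 10.10 and 10.59. Without the raised arrays the gaps of CNTN4, SQOR and CTH were still called, and TXNIP had 1.12 (limma adjusted p = 0.137).

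In the other direction the change of FRMD3 grew by -1.18 ± 0.26 from day 2 to day 7, that of the noncoding RNA LINC01346 by -1.22 ± 0.26 and that of BEX2, a small neural protein, by -0.96 ± 0.17 (SE). BEX2 was at 6.73 and 6.38 at day 2 and 6.27, 6.31, 6.17 and 6.56 at day 7 with 552A, against 6.07 and 5.76 at day 2 and 6.59 and 6.70 at day 7 with DMSO. It was thus higher with 552A at day 2 (0.64) and had -0.32 at day 7, which was not called. LINC01346 was at 9.32, 9.03, 9.79 and 9.83 at day 7 with 552A, against 10.98 and 10.60 with DMSO. RNF157, a ubiquitin ligase and the fourth by the same rule, had -1.13 ± 0.28 and was not called (limma adjusted p = 0.0979). When the raised arrays were left out BEX2 was still called, FRMD3 had -1.15 (limma adjusted p = 0.309) and LINC01346 had -0.71 (1.00).

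**Figure D3:**
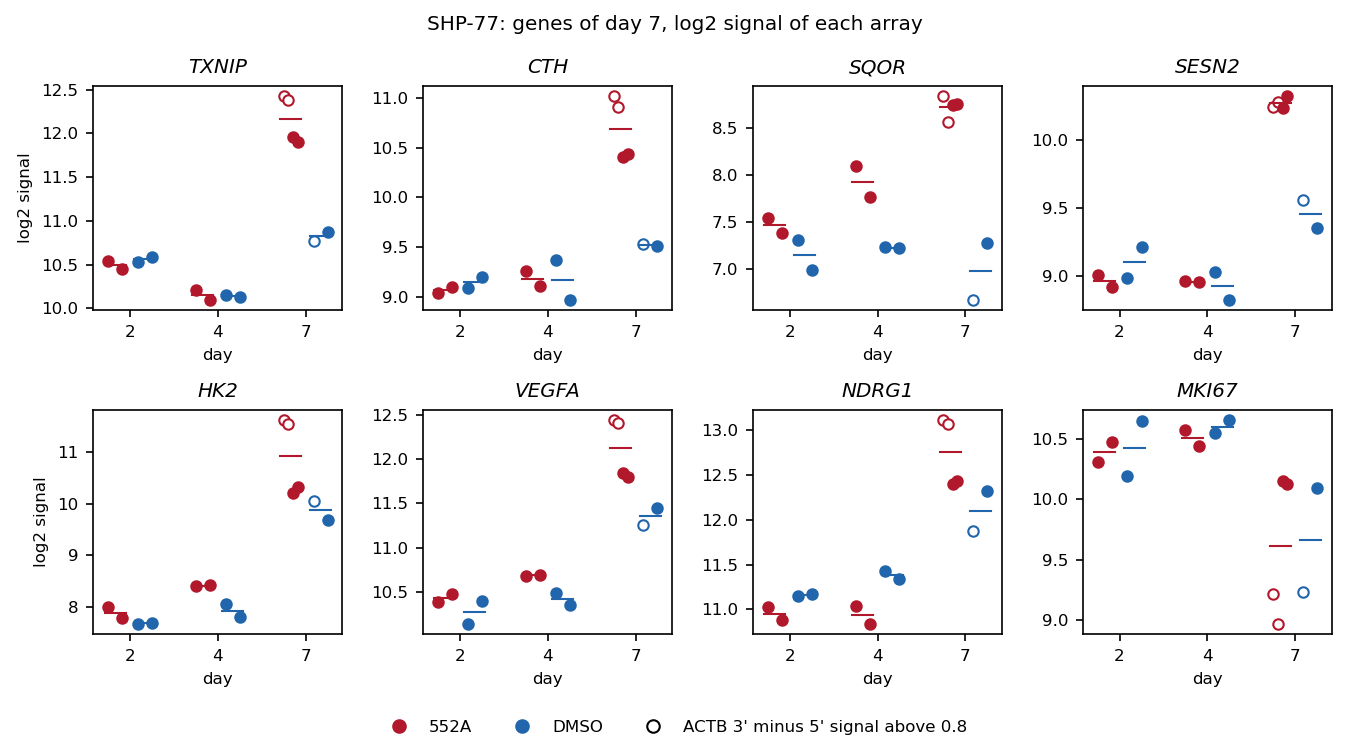
Log2 signal of each SHP-77 array (points) and group means (lines) for genes of day 7, with 552A left of DMSO on each day; open points are the arrays with an ACTB 3' minus 5' signal above 0.8. SESN2 with 552A lies between 10.23 and 10.32 at day 7 in both kinds of array, whereas HK2 lies at 11.62 and 11.56 in the open and 10.21 and 10.34 in the filled 552A points.

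Among genes of amino acid shortage and the unfolded protein response, many of them targets of the factor ATF4, some were called higher at day 7. Of 29 tested 11 were called higher (background 5.9%) and 0 lower (background 4.14%) at day 7, with a median of 0.27. At days 2 and 4, 0 were called in either direction, but few genes were called at all (background 0.436% and 0.502%). SESN2, a sensor of leucine that restrains mTORC1, was at 10.24, 10.28, 10.23 and 10.32 at day 7 with 552A, against 9.56 and 9.35 with DMSO, and between 8.83 and 9.21 in both arms at days 2 and 4. ASNS, asparagine synthetase, was at 13.18, 13.17, 13.11 and 13.17 at day 7 with 552A, against 12.39 and 12.54 with DMSO. CHAC1, which degrades glutathione, was at 11.21, 11.16, 11.29 and 11.33 with 552A, against 10.44 and 10.40 with DMSO. In these 3 genes the 552A arrays lay close together whatever their ACTB signal, and all lay above both DMSO arrays. Without the raised arrays 5 of the 29 were called higher (background 0.958%), with a median of 0.17: SESN2 at 0.93, CHAC1 at 0.91, the serine enzyme PSPH at 0.80 (a set marked for cross-hybridization had -0.07 with all arrays), ASNS at 0.60 and the kinase-like TRIB3 at 0.52. DDIT3, a transcription factor of the same response, did move with the ACTB signal, at 10.58 and 10.57 in the raised and 9.80 and 9.83 in the other 552A arrays, against 9.35 and 9.43 with DMSO. The later increase itself was called for SESN2 (0.95) and ASNS (0.66), and without the raised arrays for SESN2 (1.06) but not ASNS (0.56).

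Genes of hypoxia and glycolysis were called at day 7 as well, and their number moved with the arrays of raised ACTB signal, whose part in it was not tested further. Of 28 tested 14 were called higher (background 5.9%) and 0 lower, with a median of 0.38. From the 3 raised arrays alone 20 were called higher (background 6.31%), with a median of 0.71, and without them 1 was, TXNIP (background 0.958%), with a median of 0.13. HK2, a hexokinase, was at 11.62 and 11.56 in the raised and 10.21 and 10.34 in the other 552A arrays of day 7, against 10.06 in the raised and 9.69 in the other DMSO array. VEGFA, an angiogenic growth factor, was at 12.44 and 12.40, and 11.84 and 11.80, with 552A, against 11.26 and 11.45 with DMSO. All day 7 arrays of both arms lay above those of days 2 and 4, where HK2 had 7.78 to 8.42 with 552A and 7.67 to 8.04 with DMSO. The day 7 change of HK2 was 1.06 ± 0.29 with all arrays and 0.59 without the raised ones (limma adjusted p = 0.708), and that of VEGFA was 0.77 ± 0.20 and 0.37 (0.820). DDIT4, an inhibitor of mTORC1, did not separate by ACTB signal, at 11.38, 11.35, 11.24 and 11.39 with 552A and 10.11 and 10.35 with DMSO, and had 0.97 without the raised arrays (0.231).

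Some class I antigen presentation genes and interferon-responsive genes were called at day 7. Of 20 antigen presentation genes tested 8 were called higher (background 5.9%) and 0 lower at day 7, with a median of 0.21, and 4 were called higher averaged over days (background 3.87%). PSMB9, an immunoproteasome subunit, was at 7.88, 7.94, 7.99 and 7.99 with 552A, against 7.02 and 7.26 with DMSO, at day 7, and at 7.35 to 7.57 with 552A against 6.92 to 7.64 with DMSO at days 2 and 4. The arms overlapped before day 7 and were apart at it, and without the raised arrays its day 7 change of 0.73 missed the threshold (limma adjusted p = 0.0513), and 1 member, HLA-B, was called there (background 0.958%). Of 24 interferon genes 6 were called higher (background 5.9%) and 1 lower, USP18 (background 4.14%), at day 7, with a median of 0.22. Without the raised arrays 2 were called higher (background 0.958%) and 0 lower. The antiviral membrane protein IFITM3 was at 11.88 and 11.89, 12.10 and 12.15, and 12.48, 12.50, 12.57 and 12.46 with 552A, against 11.37 and 11.37, 11.56 and 11.54, and 11.20 and 11.63 with DMSO. IFITM3 and IFITM2 did not overlap between arms and rose by 0.72 ± 0.09 and 0.62 ± 0.09 averaged over days (SE). Both were called at day 7 without the raised arrays and from days 2 and 4 alone. IFITM2 and IFITM3 are near-identical copies read from probe sets whose names mark possible cross-hybridization, so their signals may not be separate.

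**Figure D4:**
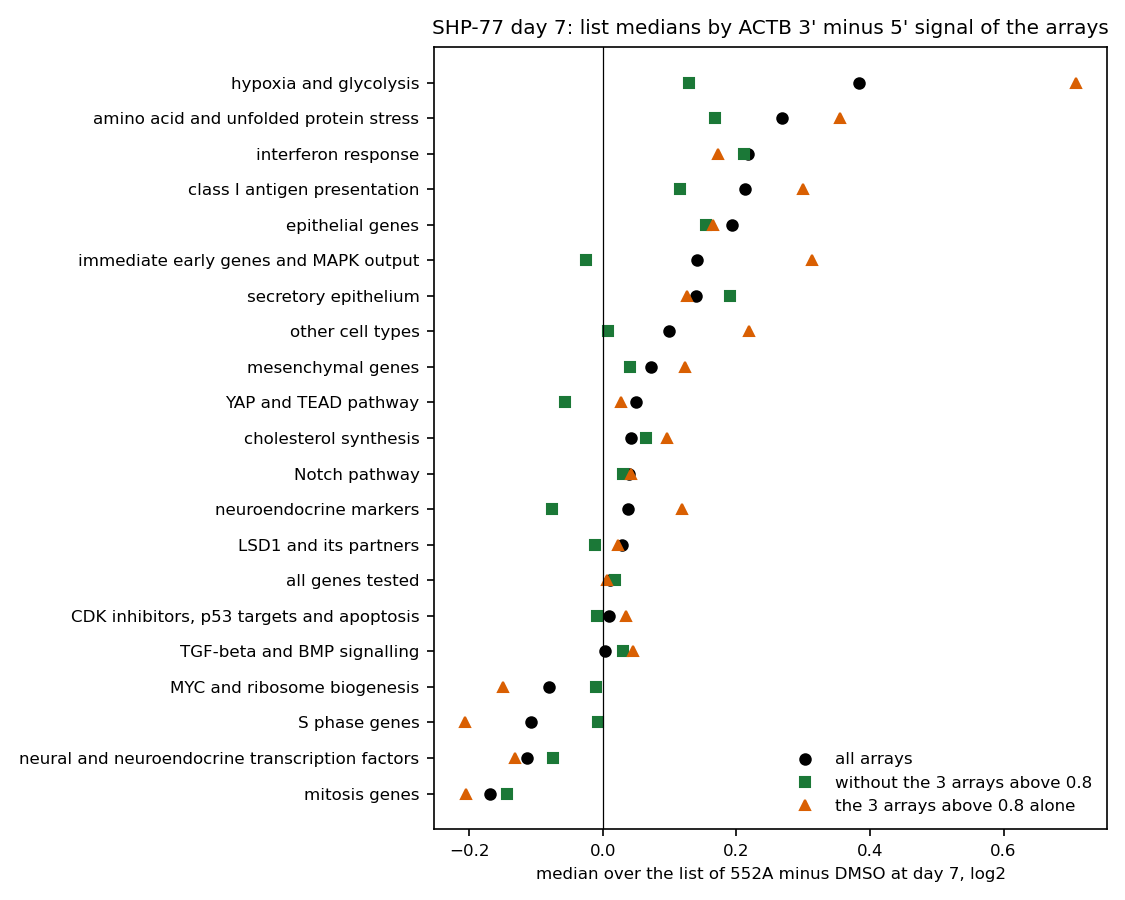
Median over each gene list of the change 552A minus DMSO at day 7 on the log2 scale, from all arrays (circles), without the 3 arrays with an ACTB 3' minus 5' signal above 0.8 (squares) and from those 3 alone (triangles). The hypoxia and glycolysis list lies at 0.38, 0.13 and 0.71, and the median over all genes tested at 0.011, 0.018 and 0.0065.

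The other lists are given averaged over days, where the background over all genes was 3.87% called higher and 4.27% called lower. Of 29 immediate early genes and outputs of MAPK signalling 0 were called, with a median of 0.11. Of 27 Notch pathway genes 0 were called higher and 2 lower, the coactivators MAML1 (-0.20) and MAML3 (-0.25), with a median of 0.0036, and a second probe set of MAML3 stood at 0.09. In TGF-beta and BMP signalling 1 of 32 was higher, the latency protein LTBP1 (0.31), and 1 lower, the ligand BMP2 (-0.57), which ranged from 10.66 through 10.92 to 11.19 with 552A and from 11.27 through 11.54 to 11.74 with DMSO without overlap, and the list's median was 0.02. Of 22 cholesterol synthesis genes the reductase TM7SF2 alone was called (0.35), with a median of 0.06. Of the 25 tested members of the MYC and ribosome biogenesis list MYCL was called higher, and MYC and the RNA polymerase subunit POLR1A (-0.21) lower, with a median of -0.05. POLR1A had 3 probe sets, and the others stood at 0.00028 and -0.08.

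Genes that mark leukocytes, fibroblasts and endothelium were read to see whether other cells could be present. Of 12 measured 1 was called higher (background 3.87%) and 0 lower (background 4.27%) averaged over days. It was the proteoglycan LUM at 0.92 ± 0.15, which was dim with DMSO. LUM ranged from 5.94 through 6.59 to 6.96 with 552A and from 4.59 through 5.79 to 6.11 with DMSO. The summed log2 level of the 12 lay between 80.3 and 82.5 in 552A arrays and between 79.0 and 80.4 in DMSO arrays. The leukocyte marker PTPRC was dim in both arms, at 3.83 to 4.08 with 552A and 3.93 to 4.21 with DMSO. The fibroblast collagen COL1A2 had 0.22 ± 0.10 and the T cell marker CD3E 0.20 ± 0.10, and neither was called (limma adjusted p = 0.198 and 0.209).

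The response of SHP-77 was then set against the mean response of 5 lines (COLO668, NCI-H146, NCI-H446, NCI-H510 and NCI-H526), each with its own DMSO arrays and the same 3 days. The difference was called higher for 856 genes (5.58%) and lower for 1599 (10.4%). After quantile normalization of all arrays these counts were 1440 higher and 1355 lower. Of the genes called in SHP-77 itself, 353 were higher in both and 471 lower in both. Among the 12 largest increases 11 were called in the difference, and UMODL1, at 0.02 ± 0.10 (limma adjusted p = 0.904), was not. UMODL1 rose by 1.39 in SHP-77 and had 3.38 in NCI-H526, 1.42 in NCI-H510, 1.66 in COLO668, 0.47 in NCI-H146 and -0.07 in NCI-H446. Among the 12 largest decreases 10 were called in the difference, HEPACAM2 (-0.33) and PHLDB2 (-0.31) being the exceptions. The SHP-77 response enters that difference, so genes called or picked by it tend to be called there too. These counts are therefore no separate support.

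AGR2 had the largest positive difference of the genes called in both, 1.58 ± 0.28 (SE, limma adjusted p = 4.9e-05). Its change was 1.63 in SHP-77, against -0.11 in NCI-H526, 0.21 in NCI-H510, 0.67 in COLO668, -0.08 in NCI-H146 and -0.47 in NCI-H446. NPNT had 1.30 in SHP-77 and -0.40 to 0.46 in the 5 others, and SCEL had 1.36 in SHP-77 and -0.08 to 0.44 in the others. CEACAM6 was not as separate, with 1.44 in SHP-77 but 0.97 in NCI-H510 and 0.89 in COLO668. The cytokine IL32 rose by 1.07 in SHP-77 and lay between -0.17 and 0.23 in the others. Its SHP-77 arrays ranged from 9.23 through 9.56 to 9.88 with 552A, and with DMSO they had a median of 8.50 and a highest value of 8.80. GABRR1, a GABA receptor subunit, rose by 1.01 in SHP-77, where it ranged from 7.93 through 8.35 to 8.75 with 552A and from 6.77 through 7.24 to 7.59 with DMSO, and lay between -0.05 and 0.03 in the others. Both genes had no overlap between the SHP-77 arms.

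The largest negative difference was that of EFNB2, a ligand of Eph receptors, at -1.11 ± 0.10. It had -0.33 in SHP-77 and 1.13 in NCI-H526, 0.89 in NCI-H510, 1.25 in COLO668, 0.53 in NCI-H146 and 0.10 in NCI-H446. FAT3, a large cadherin, had -0.64 in SHP-77 and -0.02 to 0.82 in the others, and FN1 had -0.74 in SHP-77 and -0.08 to 0.54 in the others. These 3 genes were lower in SHP-77 and were at or above 0 in most other lines. LRRTM2 had -0.89 in SHP-77 and -0.10 to 0.11 in the others. CACNA1A and FRMD3 were lower elsewhere too: CACNA1A had -1.36 in SHP-77, -1.10 in NCI-H510 and -0.74 in NCI-H146, and FRMD3 had -1.38 in SHP-77, -0.89 in NCI-H510 and -0.96 in NCI-H146. ZEB1 and VIM, named after their values were seen, had differences of -1.51 and -1.10, with ZEB1 at -0.16 in SHP-77 and up to 3.14 in NCI-H526, and VIM at 0.26 in SHP-77 and up to 2.51 in NCI-H510.

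**Figure D5:**
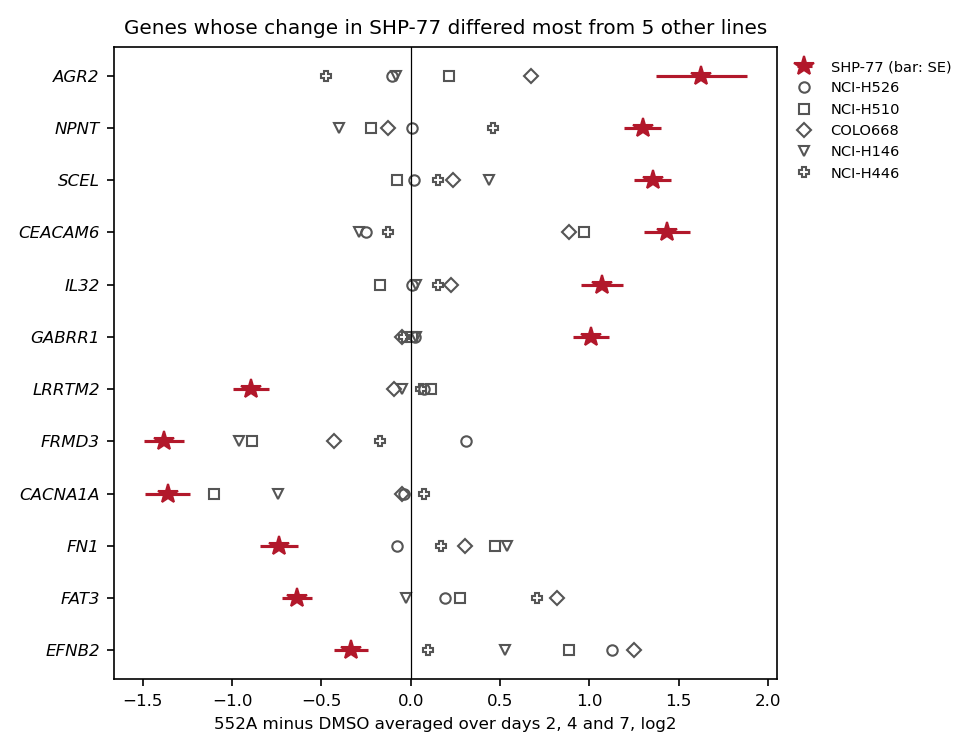
Change of 552A minus DMSO averaged over days 2, 4 and 7 on the log2 scale in SHP-77 (stars, with SE) and in 5 other lines (open symbols), for the 12 genes whose change in SHP-77 differed most from the mean of the others among those called in both tests. GABRR1 lies at 1.01 in SHP-77 and between -0.05 and 0.03 in the others.

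By list, the difference was called lower for 16 of 36 mitosis genes (background 10.4%) and higher for 0 (background 5.58%), with a median of -0.17 against -0.012 over all genes. KIF11, a spindle motor, had -0.28 in SHP-77 and -0.09 to 0.15 in the others. Against the same shares, 10 of 29 neural transcription factors were called lower and 0 higher, and of the neuroendocrine markers 10 of 26 were called higher and 1 lower, with medians of -0.17 and 0.14. Of the secretory epithelium genes 7 of 21 were called higher and 1 lower, and of the class I antigen presentation genes 6 of 20 higher and 0 lower. Of TGF-beta and BMP genes 9 of 32 were called lower (background 10.4%) and 1 higher (background 5.58%), with ID4 at -0.96 and SMAD7 at -0.53. The difference without the raised arrays was called for 1574 genes and from days 2 and 4 alone for 439.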

How the data were processed

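RNA of the 9 lines was read on Affymetrix HG-U133 Plus 2.0 arrays. The authors deposited log2 values for 54675 probe sets on 88 arrays. Which program, background correction and scaling made them is not given in the sources used here. Array medians lay between 7.36 and 7.46, so the values were used as deposited. Probe sets with 1 gene symbol (41091) were kept where the mean of at least 1 group exceeded the median of all values, 7.41. Each gene was read from its brightest set by the mean of all arrays, and sets marked for cross-hybridization were set aside where another existed. This left 15352 genes. limma 3.58.1 in R 4.3.3 fitted a mean for each of the 42 groups (46 residual degrees of freedom), with Benjamini-Hochberg adjustment and a threshold of 0.05. The fit was tested on simulated data. The number of arrays limits the precision.

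The genes and lists were chosen with earlier results of these data known. Named genes are the 12 largest same-sign changes per direction, the 4 largest per direction between days 7 and 2, the 6 largest per direction against the other lines, up to 4 per list and set regulators. Other list members were named after their values were seen. Alternatives were other scalings, filters, probe set choices, weights, blocks and subsets of arrays.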

Additional observations from a re-analysis of the deposited data

Results flagged for a closer look

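Among 46 measures tested over the 4 552A arrays of day 7, SCEL was the 1 with an array set apart: replicate 2 lay at 8.39, and the others lay between 8.88 and 8.98. Chance sets apart about 1 group in 20.

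The response of SHP-77 differed by limma's test from the mean response of the 5 other lines for 2455 genes. Among those also called in SHP-77 itself, the 6 with the largest difference in each direction are given here. The SHP-77 response was higher by 1.58 for AGR2, 1.36 for NPNT, 1.20 for SCEL, 1.20 for CEACAM6, 1.02 for IL32 and 1.01 for GABRR1 on the log2 scale. The difference was -1.11 for EFNB2, -1.03 for FAT3, -1.02 for FN1, -0.99 for CACNA1A, -0.95 for FRMD3 and -0.91 for LRRTM2.

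The response at day 7 differed by limma's test from that at day 2 for 17 genes, of which the 4 with the largest increase and the 3 with a decrease are given here. The response was larger at day 7 by 1.79 for CNTN4, 1.43 for SQOR, 1.41 for TXNIP and 1.25 for CTH. It was lower at day 7 for LINC01346 (-1.22), FRMD3 (-1.18) and BEX2 (-0.96).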

How the results depend on the processing

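The number of genes called depended on the arrays of day 7. At day 7 1541 genes were called with all arrays, 198 without the 3 raised arrays, 482 without 6 arrays in doubt over all lines, 392 with array weights and 2387 after quantile normalization. Leaving out 1 array at a time gave 319 (without DMSO day 7 replicate 1) to 2778 (without DMSO day 7 replicate 2). Averaged over days 1249 were called, against 661 without the raised arrays, 256 from days 2 and 4 and 2158 with array weights, and 696 to 2097 when the same 2 DMSO arrays were left out, and 721 without 552A day 2 replicate 2. At day 2 the 67 calls became 26 in SHP-77 arrays alone, 916 with array weights, 161 without the 6 arrays and 16 to 73 with 1 array left out, at most 27 without any of the 4 arrays of day 2. At day 4 the 77 calls became 116 after quantile normalization, 892 with array weights, 242 without the 6 arrays and 26 to 82 with 1 array left out, at most 34 without any of the 4 arrays of day 4. For day 7 minus day 2 the 17 calls became 36 after quantile normalization, 6 with array weights, 33 with the raised arrays as a block, 134 from the raised arrays alone, 7 (without DMSO day 2 replicate 2) to 166 (without DMSO day 7 replicate 2) with 1 array left out, and 0 for day 4 minus day 2. Against the other lines the 2455 calls became 1574 without the raised arrays, 439 from days 2 and 4, 3807 without NCI-H446 and 1594 (without DMSO day 7 replicate 1) to 3151 with 1 array left out. The block of raised arrays, the 6 arrays and the raised arrays alone were chosen after seeing the data. The causes were not tested.

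Arrays of 552A and DMSO with the same replicate number deviated together at days 2 (r = 0.187) and 4 (0.247) and for replicate 1 of day 7 (0.537), but not for replicate 2 of day 7 (-0.489), which is raised with 552A and not with DMSO. Not every pair passed 0.1, so the numbers were not taken as a pairing, which these values leave unsettled. With the replicate number as a block, 130 genes were called at day 4 and 155 for day 7 minus day 2, and the other counts stayed within 1.5 times.

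Of the values of single genes under the alternatives, 5534 kept direction and side of the threshold, 129 passed it anew, 308 no longer passed and 5 changed sign. With no filter another probe set stood for PDGFRA, at 0.31 at day 2, 0.036 at day 7 and 0.11 averaged over days. POLR1A read from the probe set highest in SHP-77 had 0.00028, and TXNIP from days 2 and 4 alone had -0.027.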

Other observations

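The genes whose response was larger at day 7 than at day 2, by limma's adjusted p, held others outside the naming rule, listed here after their values were seen. The later increase was 1.12 for the endometrial glycoprotein PAEP, 1.16 for the paraoxonase PON1, 1.06 for LY96, a partner of Toll-like receptor signalling, and 0.69 for the growth factor adaptor GRB10. It was also called for CCND1 (1.05), LINC02806 (1.12) and KIR2DS4 (0.95). FGF21, a secreted factor known as a target of ATF4, had 0.80, beside CTH, ASNS and SESN2, known targets of the same factor. The targets of that factor were not tested as a set.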
